A study of Mus musculus with 11 samples.

Results

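Kidneys of 4 untreated MRL/lpr mice (Lpr) were compared with kidneys of 3 healthy C57BL/6J mice (Ctr) across all genes, which uses 7 of the 11 libraries of the series and every library of both groups. All 7 mice were female and 21 weeks old, and each library came from the kidney RNA of 1 mouse. MRL/lpr mice carry the lpr mutation of Fas, the death receptor through which activated lymphocytes are removed, and they develop a lupus-like disease with nephritis. The mutation is present in every cell of the animal, the controls are another strain rather than MRL mice without lpr, and the strains came from different suppliers, so strain, supplier and disease cannot be told apart in any difference below. The remaining 4 libraries, from MRL/lpr mice injected daily into the peritoneum with DNase I, are used only as levels beside a few results.

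In lupus nephritis, immune complexes are deposited in glomeruli and lymphocytes, macrophages and plasma cells enter the kidney. Type I interferons induce antiviral genes in nearly every cell. Interferon gamma, made by T and NK cells, induces guanylate-binding proteins, the immunoproteasome and MHC molecules. The gene lists named after these interferons below do not tell their responses apart. The tubule epithelium that makes up most of the kidney recovers solutes with energy from mitochondria, and it lowers transport and metabolic genes and expresses markers such as Havcr1 when it is injured. The samples are whole kidneys, so fewer cells of a type and less RNA per cell cannot be told apart.

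Between 33469858 and 38112811 reads were counted on genes in each of the 7 kidneys. Levels are given in CPM, counts per 1000000 counts of the library after TMM scaling, which do not correct for gene length, so they are compared between kidneys and not between genes. Lpr replicate 3 stood apart from the others. Its log2 CPM fell by 0.393 for each doubling of gene length, compared to slopes between 0.025 and 0.0775 in the other 6 kidneys. In that kidney, genes in the length group centred on 861 bases had a median difference of 1.02 from the Ctr mean on the log2 scale. The group centred on 13800 bases had a median difference of -0.72. The counts of gene groups and many of the single genes are therefore given with and without Lpr replicate 3.

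**Figure D1:**
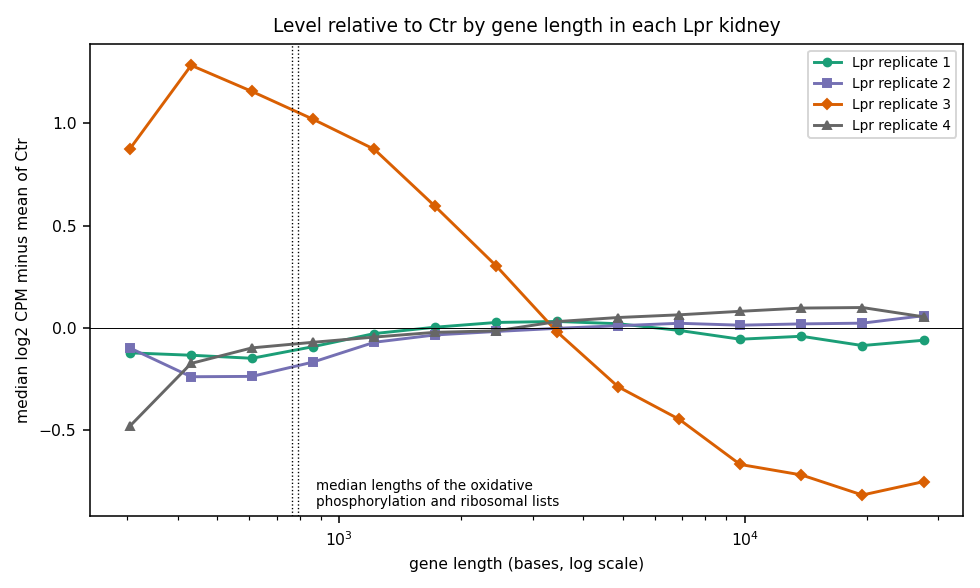
Median difference in log2 CPM from the Ctr mean (y axis) for genes grouped by length in bases (x axis, log scale), with 1 line for each Lpr kidney. Lpr replicate 3 falls from 1.02 at 861 bases to -0.72 at 13800 bases while the other 3 kidneys stay near 0 over most lengths, and dotted lines mark the median lengths of the oxidative phosphorylation list (763 bases) and of the ribosomal protein list (789 bases).

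Of 16074 genes with enough counts for edgeR's quasi-likelihood test, 1169 were higher in Lpr (7.27%) and 470 were lower (2.92%) at a Benjamini-Hochberg adjusted p under 0.05, at any fold change. These genes are called higher or lower below. The CPM of the 2 groups did not overlap, in either direction, in 4118 of the tested genes (25.6%). With Lpr replicate 3 left out, 1748 of 15855 genes were higher (11.0%) and 1076 were lower (6.79%). That set held 1121 of the 1169 genes called higher with all kidneys and 466 of the 470 called lower, and none of those tested changed sign. The median log2 fold change over all tested genes was 0.03 with Lpr replicate 3 and 0.00 without it. Leaving out 1 of the 3 Ctr kidneys, which leaves 2, lowered the calls to between 641 and 653 higher and between 211 and 262 lower, so the ranges without 1 Ctr kidney are given for most gene groups.

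**Figure D2:**
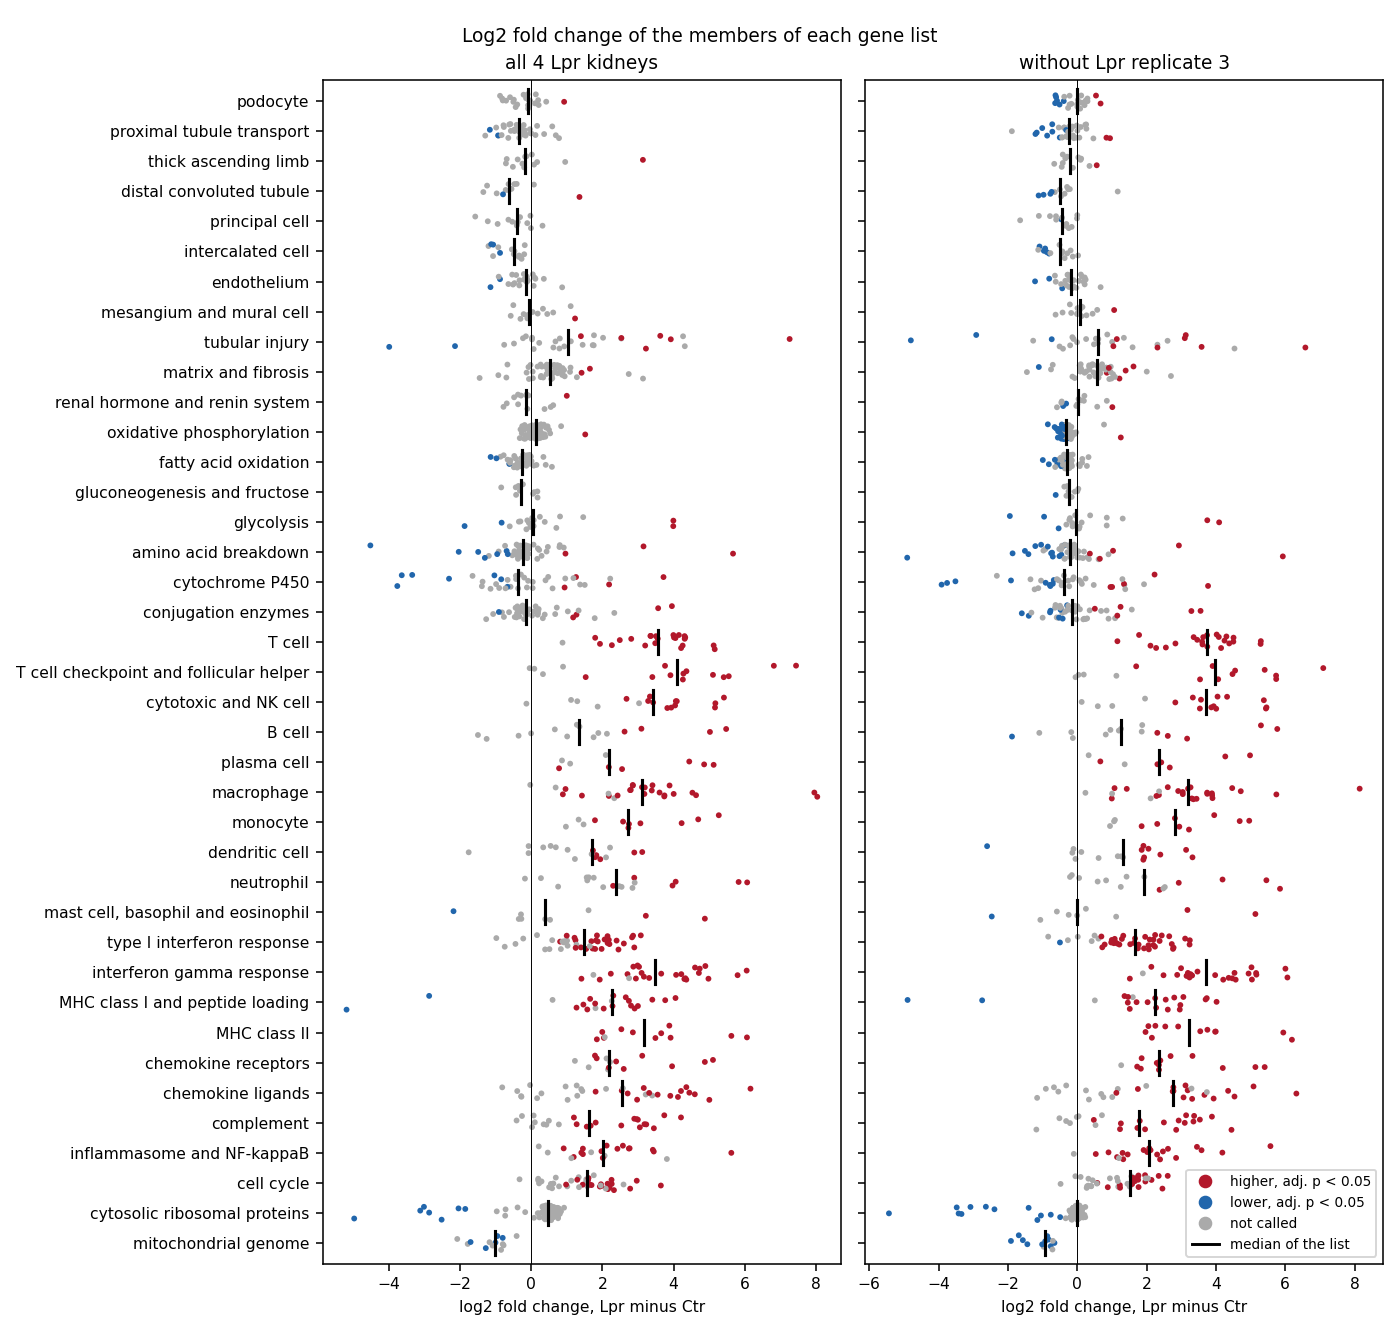
Log2 fold change of Lpr over Ctr (x axis) for each tested member of the gene lists named on the rows. All 4 Lpr kidneys are used on the left, and Lpr replicate 3 is left out on the right. Red points were called higher, blue points lower, grey points neither, and black bars are list medians; the T cell list has a median of 3.55 on the left and 3.75 on the right, and the oxidative phosphorylation list moves from 0.12 to -0.33.

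Genes induced by interferons were among the most changed groups. Of 26 interferon gamma response genes, 24 were higher and none lower (median log2 fold change 3.48), compared to 7.27% and 2.92% of all tested genes. Of 42 type I interferon response genes, 26 were higher and none lower (median 1.47). When Lpr replicate 3 was left out, the counts were 25 higher with a median of 3.72 and 35 higher with 1 lower and a median of 1.65. With 1 Ctr kidney left out, between 20 and 21 interferon gamma genes and between 9 and 10 type I interferon genes were higher.

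Gbp2, a guanylate-binding protein of the interferon gamma response, was at 23.7, 34.3 and 19.4 CPM in Ctr and 870.1, 536, 193 and 309 CPM in Lpr. Every Lpr kidney lay above every Ctr kidney, with Lpr replicate 3 the lowest of the 4, and the log2 fold change was 4.21 ± 0.56 (SE, adjusted p = 0.00223). Cxcl9, a chemokine that attracts T cells, was at 4.32, 5.01 and 3.57 CPM in Ctr and 150.1, 91.8, 52.4 and 56.6 CPM in Lpr. Its log2 fold change was 4.36 ± 0.44 (SE, adjusted p = 0.000713), and without Lpr replicate 3 it was 4.54 (adjusted p = 0.000426). Irf1, a transcription factor induced by interferon gamma, rose by 2.70 ± 0.36 (SE, adjusted p = 0.00223) on the log2 scale. Igtp, an immunity-related GTPase, rose by 4.30 ± 0.58 (SE, adjusted p = 0.00241) on this scale. Calhm6 and Serpina3g were also higher (4.33 and 4.98). These genes were called in all 7 fits that left out 1 kidney.

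Among type I interferon genes, Isg15, a ubiquitin-like modifier, was at 7.51, 5.36 and 5.51 CPM in Ctr and 27.9, 22.3, 23.8 and 12.5 CPM in Lpr. The groups did not overlap and the log2 fold change was 1.82 ± 0.30 (SE, adjusted p = 0.00591). Bst2, which tethers virus particles to the cell surface, and Zbp1, a sensor of nucleic acid, were higher by 2.83 and 3.08 on the log2 scale (adjusted p = 0.000929 and 0.00151). Ifit1 was higher with all kidneys (log2 fold change 1.73, adjusted p = 0.034) but was not called without any 1 of the Ctr kidneys or without Lpr replicate 2, with adjusted p between 0.0805 and 0.139. Rsad2, Trim25 and Samd9l did not pass the test, and Samd9l was the 1 member called lower without Lpr replicate 3 (-0.50, adjusted p = 0.0149). The median of the type I list in single kidneys was 2.03, 1.67, 0.84 and 1.00 above the Ctr mean in Lpr replicates 1 to 4, and that of the interferon gamma list was 4.16, 3.87, 2.44 and 3.16. Replicates 1 and 2 were the highest for both lists.

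The promoters of 5 of these genes and of B2m, the MHC class I light chain, are shown so that the motif matches counted below can be read, as the 250 bases before the annotated start site on the gene's strand (RefSeq, GRCm38.p6, which corresponds to the mm10 build in the submitters' processing notes). Capitals mark matches on either strand to GAAANNGAA, the core of the interferon-stimulated response element (ISRE), and to TTCNNNGAA, the gamma-activated site (GAS). The 1 GAS match of Irf1 (chr11:53769764-53770013) begins at base -90 from the start site, and the ISRE match of Gbp2 (chr3:142620413-142620662) begins at -58. Igtp (chr11:58199306-58199555) holds an ISRE match at -34 and a GAS match at -45. Cxcl9 (chr5:92328080-92328329, minus strand) holds an ISRE match at -175 and B2m (chr2:122147437-122147686) holds one at -139. Isg15 (chr4:156200819-156201068, minus strand) holds 3 overlapping ISRE matches.
Irf1: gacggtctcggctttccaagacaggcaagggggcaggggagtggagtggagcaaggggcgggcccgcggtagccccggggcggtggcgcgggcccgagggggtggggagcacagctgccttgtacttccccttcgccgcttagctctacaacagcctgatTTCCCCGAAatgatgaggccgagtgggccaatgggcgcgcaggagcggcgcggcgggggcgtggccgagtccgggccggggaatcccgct
Gbp2: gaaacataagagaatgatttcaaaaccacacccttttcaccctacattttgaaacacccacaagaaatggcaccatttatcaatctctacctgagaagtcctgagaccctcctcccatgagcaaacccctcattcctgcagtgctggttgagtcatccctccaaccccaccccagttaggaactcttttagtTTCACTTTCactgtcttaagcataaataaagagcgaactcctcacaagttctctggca
Igtp: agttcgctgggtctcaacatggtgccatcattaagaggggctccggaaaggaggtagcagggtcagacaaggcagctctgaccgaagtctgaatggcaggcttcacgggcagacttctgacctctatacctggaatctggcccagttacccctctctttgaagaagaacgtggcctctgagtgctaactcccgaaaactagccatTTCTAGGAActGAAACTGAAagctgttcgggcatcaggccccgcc
Cxcl9: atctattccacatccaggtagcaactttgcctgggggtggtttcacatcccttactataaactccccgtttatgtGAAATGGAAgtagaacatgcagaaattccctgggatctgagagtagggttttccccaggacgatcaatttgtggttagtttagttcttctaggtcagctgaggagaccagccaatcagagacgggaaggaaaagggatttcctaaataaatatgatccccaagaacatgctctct
Isg15: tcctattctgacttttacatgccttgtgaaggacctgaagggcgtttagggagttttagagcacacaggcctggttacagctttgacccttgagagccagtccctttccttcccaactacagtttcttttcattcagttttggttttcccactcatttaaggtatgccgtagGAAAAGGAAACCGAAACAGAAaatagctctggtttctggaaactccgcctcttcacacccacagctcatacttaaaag
B2m: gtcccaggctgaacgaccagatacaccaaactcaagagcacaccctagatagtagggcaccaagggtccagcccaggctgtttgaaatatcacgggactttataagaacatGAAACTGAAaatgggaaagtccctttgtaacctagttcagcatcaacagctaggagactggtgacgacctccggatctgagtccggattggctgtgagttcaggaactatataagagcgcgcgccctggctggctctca

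A match to the ISRE core was present in the promoter of 14 of 17 interferon gamma genes with a RefSeq promoter (82.4%) and of 14 of 33 type I genes (42.4%), compared to 825 of 12675 tested genes with one (6.51%). A GAS match was present in 9 of the 17 interferon gamma genes (52.9%), in 4 of the 33 type I genes (12.1%) and in 6.22% of tested genes. Of all 896 higher genes with a promoter, 124 held an ISRE core (13.8%), and of 381 lower genes 27 did (7.09%). Among macrophage genes 6 of 21 promoters held one (28.6%), among MHC class I and peptide-loading genes 4 of 18 (22.2%), and among T cell genes none of 14, a number too small to set against the share of tested genes. These are matches of letters in 1 promoter per gene and show nothing of binding in these kidneys.

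Most MHC genes and the machinery that loads peptides onto them were higher in Lpr. Of 12 MHC class II genes 11 were higher and none lower (median log2 fold change 3.17), and of 21 class I and peptide-loading genes 16 were higher and 2 lower (median 2.26). In the fit that excluded Lpr replicate 3, the counts were 12 and none, and 17 and 2. Cd74, the invariant chain of class II molecules, was at 334, 305 and 312 CPM in Ctr and 5273, 6156, 3914 and 3678 CPM in Lpr (log2 fold change 3.91 ± 0.27 SE, adjusted p = 0.000201). H2-DMb2, which helps to load class II peptides, was at 1.69, 2.11 and 1.86 CPM in Ctr and 129.6, 187, 87.5 and 95.6 CPM in Lpr, a log2 fold change of 6.06 ± 0.36 (SE, adjusted p = 0.000189). The Lpr levels of H2-DMb2 exceeded every Ctr level by over an order of magnitude. Psmb8, a subunit of the immunoproteasome, was at 19.3, 21.2 and 14.9 CPM in Ctr and 323, 360.5, 325 and 213 CPM in Lpr (log2 fold change 4.05 ± 0.26 SE, adjusted p = 0.000201), and B2m rose by 3.00 on the log2 scale (adjusted p = 0.000293). Without 1 Ctr kidney, 10 class II genes and 15 class I genes were higher.

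The class I heavy chains did not move together. H2-K1 was higher (log2 fold change 2.31 ± 0.24 SE, adjusted p = 0.00075), H2-D1 was at 0.60 and did not pass (adjusted p = 0.135), and H2-Q7 was lower. H2-Q7 was at 3.30, 4.56 and 4.67 CPM in Ctr and 0.113, 0.209, 0.0301 and 0.0853 CPM in Lpr (log2 fold change -5.18 ± 0.50 SE, adjusted p = 0.000651). H2-Q6 was also lower (-2.87, adjusted p = 0.0012), H2-Q4 was higher (2.65, adjusted p = 0.00142), and H2-Q1 rose from between 0.107 and 0.223 CPM in Ctr to between 18.8 and 28.3 CPM in Lpr. The summed level of H2-Q6 and H2-Q7, which are near-identical neighbours, was 8.44 ± 1.08 CPM (SD, n = 3) in Ctr and 0.687 ± 0.226 CPM (SD, n = 4) in Lpr. MRL and C57BL/6 mice carry different H2 haplotypes, and reads of a diverged allele can fail to align or align to a neighbour, so the levels of single H2 genes are uncertain.

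**Figure D3:**
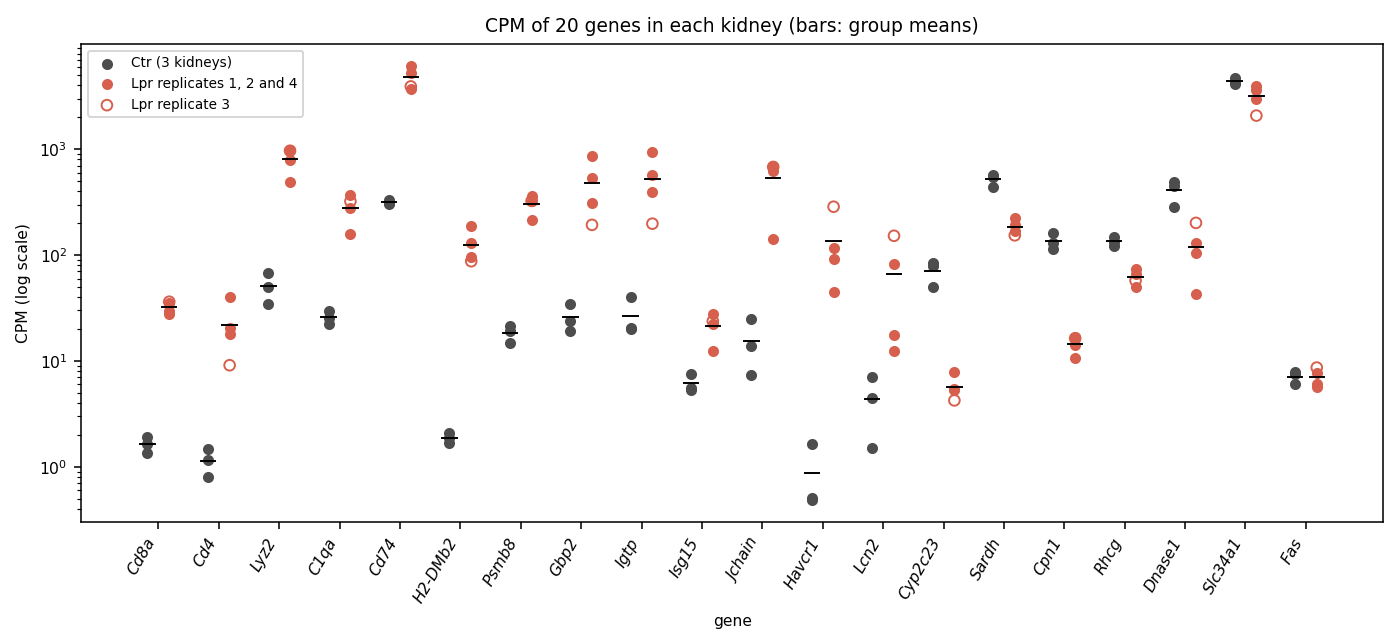
CPM (y axis, log scale) of 20 genes in each kidney, with 3 Ctr and 4 Lpr points per gene, bars at group means and an open circle for Lpr replicate 3. The immune and interferon genes from Cd8a to Jchain and the injury gene Havcr1 are higher in every Lpr kidney, Cyp2c23, Sardh, Cpn1, Rhcg and Dnase1 are lower in every Lpr kidney, and Fas overlaps between the groups.

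T cell genes rose as a group. Of 23 T cell genes 22 were higher and none lower (median log2 fold change 3.55), and all 23 were higher without Lpr replicate 3 (median 3.75). Cd8a, the coreceptor of cytotoxic T cells, was at 1.34, 1.63 and 1.92 CPM in Ctr and 27.9, 35.0, 36.3 and 29.7 CPM in Lpr (log2 fold change 4.31 ± 0.23 SE, adjusted p = 0.000152). Cd4, the coreceptor of helper T cells, was at 1.48, 0.798 and 1.17 CPM in Ctr and 20.4, 40.1, 9.11 and 17.98 CPM in Lpr (log2 fold change 4.25 ± 0.55 SE, adjusted p = 0.00195). The spread among Lpr kidneys was wider for Cd4 than for Cd8a, with Lpr replicate 2 the highest for Cd4. Cd3e, a chain of the T cell receptor complex, rose by 3.99 ± 0.51 (SE, adjusted p = 0.00191) and the kinase Lck by 3.50 on the log2 scale. With 1 Ctr kidney left out, between 15 and 16 of the T cell genes were called. The list median in single kidneys was 2.84, 4.39, 2.97 and 3.39 above the Ctr mean in Lpr replicates 1 to 4.

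Genes of restrained, helper and killer lymphocytes followed. Of 16 tested checkpoint and follicular helper genes 12 were higher and none lower, and of 17 cytotoxic and NK cell genes 12 were higher and none lower. Their medians were 4.08 and 3.42, or 3.27 and 3.33 with the genes at 3 counts or fewer in every Ctr kidney placed at their lower bound. Pdcd1, which encodes the inhibitory receptor PD-1, was at 0.161, 0.0319 and 0 CPM in Ctr and 3.32, 21.5, 2.47 and 4.38 CPM in Lpr, and Lpr replicate 2 stood well above the rest. Lag3, another inhibitory receptor, rose by 3.40 on the log2 scale (adjusted p = 0.000726), and Eomes, a transcription factor of effector T cells, by 4.26 (adjusted p = 0.00389). Tox was at 0.89 and did not pass (adjusted p = 0.303). Nkg7 and Gzmb, which belong to cytotoxic granules, rose by 4.04 and 5.17 (adjusted p = 0.00148 and 0.00918). In the 6 kidneys other than Lpr replicate 3, 10 of 14 and 12 of 16 tested genes of these lists were higher, and without 1 Ctr kidney between 5 and 8 and between 8 and 9.

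B cell markers moved less evenly than plasma cell genes. Of 15 tested B cell genes 4 were higher (Cd22, Cd72, Cd79a and Pou2af1) and none lower, with a median of 1.36 (Cd79a not without Ctr replicates 1 and 3 and Lpr replicates 2 and 4, adjusted p up to 0.0956), and of 9 plasma cell genes 6 were higher and none lower, with a median of 2.18. Ms4a1, which marks mature B cells, had a log2 fold change of 1.28 that did not pass (adjusted p = 0.103). Cd72, a B cell coreceptor, rose by 2.62 on the log2 scale (adjusted p = 0.00191). Jchain, which joins secreted IgA and IgM, was at 24.7, 7.44 and 13.8 CPM in Ctr and 143, 617, 679.8 and 692 CPM in Lpr (log2 fold change 5.12 ± 0.69 SE, adjusted p = 0.00238). Its level was lower in Lpr replicate 1 than in the other 3, and still above all Ctr kidneys. Mzb1, a chaperone of antibody secretion, rose by 4.44 (adjusted p = 0.00173). Without Lpr replicate 3, 5 B cell genes were higher and 1 lower, and 6 of 8 plasma cell genes were higher. Without 1 Ctr kidney, between 3 and 4 genes of each list were higher. Antibody constant region genes were not analysed here.

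Myeloid genes rose with the lymphocyte genes. Of 27 tested macrophage genes 23 were higher and none lower (median log2 fold change 3.11), and 23 were higher without Lpr replicate 3. Of 11 monocyte genes 8 were higher, of 18 dendritic cell genes 7, and of 18 tested neutrophil genes 6, with none lower in any of these lists. Their medians were 2.73, 1.71 and 2.39. Lyz2, the lysozyme of macrophages, was at 67.8, 34.2 and 49.7 CPM in Ctr and 788, 986, 967 and 489 CPM in Lpr (log2 fold change 4.00 ± 0.36 SE, adjusted p = 0.00056). Adgre1, which encodes the macrophage marker F4/80, rose by 3.11 ± 0.45 (SE, adjusted p = 0.0034). Ly6c2, a marker of inflammatory monocytes, and Ccr2, the receptor that brings monocytes out of the marrow, rose by 4.22 and 1.79 (adjusted p = 0.00103 and 0.00373). Csf1r, the macrophage growth factor receptor, rose by 0.89 (adjusted p = 0.0382), and this call was lost without every kidney except Lpr replicate 3, with adjusted p up to 0.165. With Lpr replicate 3 left out, 8 monocyte, 8 dendritic cell and 5 of 15 neutrophil genes were higher and 1 dendritic cell gene was lower. With 1 Ctr kidney left out, 18 macrophage, between 6 and 8 monocyte, between 2 and 3 dendritic cell and between 3 and 5 neutrophil genes were higher.

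Markers of dendritic cells and neutrophils were less uniform. Xcr1, a receptor of cross-presenting dendritic cells, rose by 3.12 ± 0.53 (SE, adjusted p = 0.0067). Zbtb46, a transcription factor of conventional dendritic cells, was at -0.07 and did not pass (adjusted p = 0.911). Of the 24 listed neutrophil genes, Cxcr2, Ly6g, Mmp8, Elane, Ctsg and Cd177 had too few counts to be tested. S100a8 and S100a9, which form the neutrophil protein calprotectin, had log2 fold changes of 2.89 and 2.30 (adjusted p = 0.0167 and 0.0256). Both calls were lost without Ctr replicate 2 (adjusted p = 0.0723 and 0.109), and that of S100a9 also without Ctr replicate 3 (adjusted p = 0.1). Fpr2, a receptor for formylated peptides, rose by 5.82 (adjusted p = 0.00167) in all 7 fits that left out 1 kidney. Among 9 tested mast cell, basophil and eosinophil genes, 2 were higher and 1 was lower (median 0.39), with the same counts and a median of 0.00 without Lpr replicate 3, and without 1 Ctr kidney 1 was higher and none lower.

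Complement, chemokine and inflammasome genes were higher as well. Of 24 tested complement genes 15 were higher, of 32 chemokine ligands 15, of 14 chemokine receptors 9, and of 21 inflammasome and NF-kappaB genes 15, with none lower. C4b, of the classical pathway, was at 12.5, 8.46 and 6.41 CPM in Ctr and 221, 234, 73.7 and 142 CPM in Lpr (log2 fold change 4.21 ± 0.47 SE, adjusted p = 0.00115), and C1qa, which recognises immune complexes, rose by 3.44 ± 0.32 (SE, adjusted p = 0.000608). Cxcl13, which attracts B cells, rose by 5.00 ± 0.80 (SE, adjusted p = 0.00521), and Ccl8 by 6.16 ± 0.71 (SE, adjusted p = 0.00126). Il1b, which encodes interleukin 1 beta, rose by 3.44 (adjusted p = 0.00299), and Il1rn, its receptor antagonist, by 5.62 (adjusted p = 0.000684). When Lpr replicate 3 was left out, the counts were 16 of 24, 15 of 29, 12 of 13 and 19 of 21. Without 1 Ctr kidney, they lay between 9 and 11, at 11, between 5 and 7 and between 10 and 11.

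Of the 13 tested genes of the study's kidney RT-PCR, a list taken from the study of these mice and so no independent evidence, 4 were higher and none lower: Il1b, Tnf, Havcr1 and Ccl2. Without Lpr replicate 3, 7 were higher and 2 lower, and without 1 Ctr kidney 2 were higher. Tnf was higher (2.12, adjusted p = 0.0425), but its call was lost without each of Ctr replicates 1 to 3 and Lpr replicates 1 and 2 (adjusted p between 0.0723 and 0.173), and Ccl2, a chemokine for monocytes, was not called without any 1 of the Ctr kidneys (adjusted p up to 0.0593). Il1b and Havcr1 were called in all 7 fits that left out 1 kidney. Tlr4, the receptor of bacterial lipopolysaccharide, and its adaptor Myd88 had log2 fold changes of 0.88 and 0.49 (adjusted p = 0.0988 and 0.0993) and were higher without Lpr replicate 3 (adjusted p = 0.0443 and 0.0297).

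Fas, the gene that carries the lpr mutation, was at 7.83, 6.00 and 7.46 CPM in Ctr and 7.65, 6.08, 8.66 and 5.72 CPM in Lpr, and the groups overlapped (log2 fold change -0.01, adjusted p = 0.982). The lpr allele is an insertion in an intron, which counts over the whole gene need not show. Fasl, its ligand, was higher (5.16, adjusted p = 0.0201), a call lost without Ctr replicate 2 or 3 (adjusted p = 0.0745 and 0.0906). Of the 8 genes of the Fas pathway 2 were higher with all kidneys, 4 without Lpr replicate 3 and at most 1 without 1 Ctr kidney. Cell cycle genes were higher in 19 of 41 cases with none lower and 40 of 41 log2 fold changes were above 0 (median 1.58). Mki67, a marker of dividing cells, lay between 1.37 and 4.68 CPM in Ctr and between 12.3 and 17.5 CPM in Lpr (log2 fold change 2.25 ± 0.40 SE, adjusted p = 0.00789). In the fit that excluded Lpr replicate 3, 20 of them were higher, and without 1 Ctr kidney between 5 and 13.

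**Figure D4:**
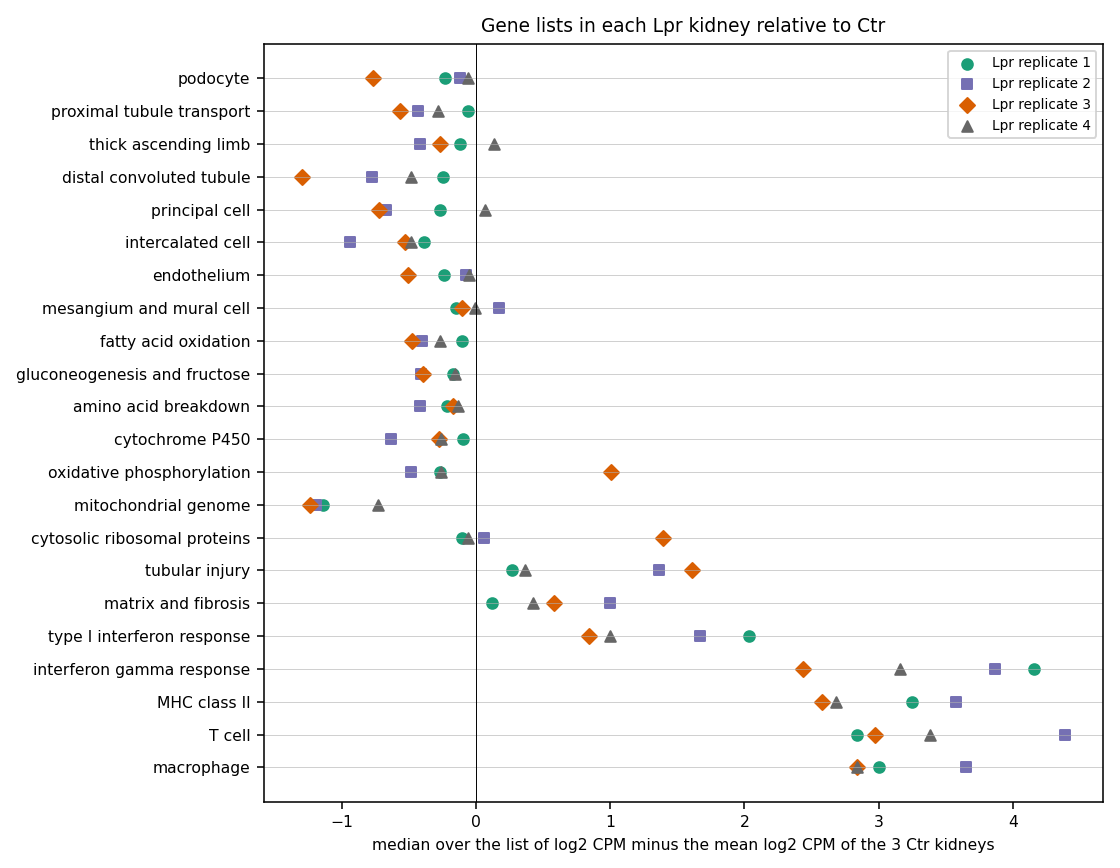
Median over each of 22 gene lists of log2 CPM minus the Ctr mean (x axis) in each Lpr kidney. Lpr replicate 3 is drawn as a diamond. Immune and interferon lists lie above 0 in all 4 kidneys, segment lists lie near or below 0, and the oxidative phosphorylation and ribosomal lists are above 0 in Lpr replicate 3 alone by a wide margin (1.00 and 1.40).

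Most genes that define the parts of the nephron did not pass the test, as was so for most tested genes (7.27% were higher and 2.92% lower). In simulated data with far fewer changed genes and no length trend, that test called 9 of 67 genes changed by 1 on the log2 scale. This does not give the share of such changes missed in these kidneys. Podocyte genes, which form the filtration barrier, had 1 of 23 higher and none lower (median log2 fold change -0.10), proximal tubule transport genes none higher and 2 of 36 lower (-0.33), thick ascending limb genes 1 of 13 higher and none lower (-0.17), and distal convoluted tubule genes 1 of 12 higher and 1 lower (-0.63). Of 13 principal cell genes none passed (median -0.40), and of 15 intercalated cell genes, which secrete acid or base in the collecting duct, none were higher and 3 were lower (-0.49). In the 6 kidneys other than Lpr replicate 3, the counts lower were 6 podocyte, 8 proximal tubule, no thick ascending limb, 4 distal convoluted tubule, 1 principal cell and 5 intercalated cell genes, with medians between -0.51 and 0.00. Against the 6.79% of all genes lower in that fit, the podocyte, proximal tubule, distal convoluted tubule and intercalated cell counts are shares of 26.1%, 22.2%, 33.3% and 33.3%, and 2 podocyte, 2 proximal tubule and 1 thick ascending limb gene were higher. With 1 Ctr kidney left out, none of these genes were higher, and no podocyte, distal convoluted tubule, thick ascending limb or principal cell gene, at most 1 proximal tubule gene and between 1 and 2 intercalated cell genes were lower.

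Nphs1, which encodes nephrin of the slit diaphragm, was at 56.0, 63.9 and 55.1 CPM in Ctr and 55.0, 39.8, 20.7 and 50.6 CPM in Lpr, with Lpr replicate 3 the lowest (log2 fold change -0.49, adjusted p = 0.42). Slc34a1, the phosphate transporter of the proximal tubule, was at 4144, 4710 and 4314 CPM in Ctr and 3990, 2958, 2076 and 3625 CPM in Lpr, where all Lpr kidneys lay below the lowest Ctr kidney but the difference did not pass (-0.47, adjusted p = 0.318). Slc22a2, an organic cation transporter of that segment, was lower (-0.93 ± 0.18 SE, adjusted p = 0.0112), but not without Ctr replicate 1 or 3 (adjusted p = 0.0589 and 0.0607). Slc12a3, the thiazide-sensitive cotransporter of the distal convoluted tubule, was at 797, 838 and 698 CPM in Ctr and 455, 408, 226 and 496 CPM in Lpr (-0.97, adjusted p = 0.0523) and was lower without Lpr replicate 3 (-0.77, adjusted p = 0.00418). Umod, the uromodulin gene of the thick ascending limb, and Aqp2, the water channel of principal cells, did not pass (-0.38 and 0.32).

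The clearest segment gene was Rhcg, an ammonia channel of intercalated and connecting cells, at 134, 149 and 121 CPM in Ctr and 73.7, 49.9, 57.4 and 66.0 CPM in Lpr. All Lpr kidneys lay below all Ctr kidneys (log2 fold change -1.12 ± 0.17 SE, adjusted p = 0.0044), and the call held in all 7 fits that left out 1 kidney. Slc4a1, the anion exchanger of acid-secreting intercalated cells, was at 98.8, 92.4 and 96.5 CPM in Ctr and 51.1, 37.2, 19.4 and 59.0 CPM in Lpr. Its difference missed the threshold with all kidneys (-1.20, adjusted p = 0.0528) and passed without Lpr replicate 3 (-0.96, adjusted p = 0.00631). Slc26a4, which encodes pendrin of base-secreting cells, was lower (-0.87, adjusted p = 0.0192), a call lost without each Ctr kidney and without Lpr replicates 2 and 4 (adjusted p up to 0.106).

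Few vessel genes passed the test, as was so for all tested genes (7.27% were higher and 2.92% lower). Of 25 endothelial genes none were higher and 2 were lower (median -0.14), and of 15 mesangial and mural genes 1 was higher (median -0.05). Without Lpr replicate 3, 3 endothelial genes were lower (12%, compared to 6.79% of all genes) and 1 mural gene was higher (11.0% of all genes were). Without 1 Ctr kidney none of either list passed. Sox17, a transcription factor of arterial endothelium, was at 10.7, 10.4 and 12.6 CPM in Ctr and 3.71, 4.43, 5.87 and 6.29 CPM in Lpr (log2 fold change -1.14, adjusted p = 0.0174), and it was not called without any 1 of the Ctr kidneys (adjusted p up to 0.0922). Pecam1 and Cdh5, present in all endothelium, were at -0.14 and -0.33 and did not pass. Of 14 tested genes of renal hormones and the renin system 1 was higher, Agt, which encodes angiotensinogen (1.00, adjusted p = 0.0239), and this was lost without Ctr replicates 1 and 3 and Lpr replicates 1 and 2 (adjusted p up to 0.12). Kl, the anti-ageing hormone klotho, was at -0.78 (adjusted p = 0.157). With Lpr replicate 3 left out, 1 gene of this list was higher and 2 were lower, and without 1 Ctr kidney at most 1 was higher.

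Havcr1, the kidney injury molecule of the proximal tubule, had the largest rise among the tubular injury genes, at 0.483, 0.511 and 1.65 CPM in Ctr and 116, 91.7, 286 and 44.8 CPM in Lpr. Lpr replicate 3 held the highest level and replicate 4 the lowest, and the log2 fold change was 7.25 ± 0.86 (SE, adjusted p = 0.0014), or 6.58 without Lpr replicate 3 (adjusted p = 0.000495). Of 30 tubular injury genes 6 were higher and 2 were lower (median 1.02), and 24 had a log2 fold change above 0. When Lpr replicate 3 was left out, 7 of 29 were higher and 3 lower (median 0.61), and without 1 Ctr kidney 3 were higher and at most 1 was lower. Vcam1, an adhesion molecule of injured tubule and activated endothelium, and Cd44, a receptor for hyaluronan also present on lymphocytes, rose by 3.62 and 3.22 (adjusted p = 0.00351 and 0.00326). Lcn2, the lipocalin NGAL, was at 4.48, 1.5 and 7.13 CPM in Ctr and 17.5, 82.9, 152 and 12.3 CPM in Lpr (log2 fold change 3.92, adjusted p = 0.0408). The highest Ctr and lowest Lpr levels of Lcn2 were close, and the call was lost without each Ctr kidney and without Lpr replicate 2 (adjusted p between 0.0892 and 0.152).

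The fibrinogen chains Fgb and Fgg, which belong to the same list because injured tubule can express them, went the other way. Fgb was at 4.16, 4.02 and 3.48 CPM in Ctr and 0.113, 0.287, 0.571 and 0 CPM in Lpr (log2 fold change -3.99, adjusted p = 0.0141), a call lost without Ctr replicate 1 (adjusted p = 0.0557). Fgg was at -2.14 (adjusted p = 0.0492), and was not called without any 1 kidney other than Lpr replicate 3 (adjusted p up to 0.148). Of 47 matrix and fibrosis genes 2 were higher and none lower with a median of 0.52, and 39 were above 0. Col1a1 and Fn1, the main interstitial collagen and fibronectin, were at 0.47 and 0.88 and did not pass (adjusted p = 0.522 and 0.184). The 2 that passed were Mmp14, a membrane-bound matrix protease (1.65, adjusted p = 0.0148), and Col8a1, a short-chain collagen (1.41, adjusted p = 0.0157). Neither was called without Ctr replicate 1 or 2, nor Mmp14 without Ctr replicate 3 (adjusted p up to 0.0723 for Mmp14 and 0.0872 for Col8a1). In the fit that excluded Lpr replicate 3, 5 matrix genes were higher and 1 was lower, and without 1 Ctr kidney at most 1 was higher.

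The direction of the genes of oxidative phosphorylation, which encode the respiratory complexes from the nucleus, depended on 1 kidney. With all kidneys, 1 of 80 genes was higher (Cox6b2, not without any 1 of the Ctr kidneys, adjusted p up to 0.0784), none were lower and the median log2 fold change was 0.12, with 58 above 0. In the 6 kidneys other than Lpr replicate 3, 1 was higher, 35 were lower, the median was -0.33 and 2 were above 0. The list medians in Lpr replicates 1 to 4 were -0.27, -0.48, 1.00 and -0.26 from the Ctr mean, and the genes have a median length of 763 bases, in the range where Lpr replicate 3 lay above the other kidneys. With gene length as an offset in the fit of all 7 kidneys, 7 genes were lower and 1 higher, with a median of -0.24. Without 1 Ctr kidney, none were called. Sdha, a subunit of complex II, was at -0.30 (adjusted p = 0.328).

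The 13 protein genes of the mitochondrial genome, a list added after its values were seen, lay below the Ctr mean in all 4 Lpr kidneys, with list medians of -1.14, -1.19, -1.24 and -0.73 in replicates 1 to 4. With all kidneys 5 were lower and none higher (none of the 13 log2 fold changes was above 0), and without Lpr replicate 3, 10 were lower (median -0.92). ND3, of respiratory complex I, was at 26.7, 31.1 and 24.3 CPM in Ctr and 8.24, 4.51, 11.9 and 9.02 CPM in Lpr (log2 fold change -1.70 ± 0.29 SE, adjusted p = 0.00718) and was called in all 7 fits that left out 1 kidney. ND1, of the same complex, was at -0.80 (adjusted p = 0.0277), and its call was lost without each Ctr kidney and Lpr replicates 1 and 2 (adjusted p up to 0.129). With 1 Ctr kidney left out, between 1 and 2 of the 13 genes were lower. Mitochondrial genes took 9.22%, 10.4% and 10.3% of all counts in Ctr and 5.92%, 5.05%, 3.56% and 6.83% in Lpr. The shares did not overlap, and in the DNase kidneys they were 7.41%, 6.15%, 6.52% and 5.99%.

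Most genes of the pathways that feed the mitochondria did not pass the test, as was so for most tested genes (7.27% were higher and 2.92% lower). Of 35 fatty acid oxidation genes 3 were lower (Ehhadh, Decr2 and Crot) and none higher, with a median of -0.26. Without Lpr replicate 3, 6 were lower (17.1%, compared to 6.79% of all genes in that fit). Ehhadh, the bifunctional enzyme of peroxisomal beta-oxidation, was at 1084, 969.5 and 788 CPM in Ctr and 594, 417, 292 and 412 CPM in Lpr (log2 fold change -1.14, adjusted p = 0.0216). It was not called without Ctr replicates 1 and 2 and Lpr replicates 2 and 4 (adjusted p up to 0.107), Decr2 was not called without any 1 of the Ctr kidneys and Crot was called only with all kidneys or without Lpr replicate 3 (adjusted p up to 0.143 and 0.186), and without 1 Ctr kidney at most 1 gene of the list was lower. Cpt1a, which admits fatty acids to mitochondria, and Pck1, the enzyme that commits to gluconeogenesis, were at -0.61 and -0.84 and did not pass (adjusted p = 0.342 and 0.157), and both were lower without Lpr replicate 3 (adjusted p = 0.0406 and 0.0479). None of 10 gluconeogenesis and fructose genes passed with all kidneys and 1 was lower without Lpr replicate 3. Of 20 glycolysis genes 2 were higher and 2 lower, 2 and 3 without Lpr replicate 3, and 2 and 1 without 1 Ctr kidney. Hk3, the hexokinase of myeloid cells, was among the higher (3.99, adjusted p = 0.00103).

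The enzymes of amino acid and drug metabolism named here were mostly picked for a small p or after their values were seen. They therefore show the extremes of their lists. Of 54 tested amino acid breakdown genes 3 were higher and 7 lower (median -0.23), compared to 7.27% and 2.92% of all tested genes. Sardh, the mitochondrial sarcosine dehydrogenase, was at 552, 574 and 435 CPM in Ctr and 224, 169, 154 and 194 CPM in Lpr (log2 fold change -1.49 ± 0.19 SE, adjusted p = 0.00187). The histidine pathway split: Hal, which removes ammonia from histidine, was at 0.295, 0.0957 and 0.240 CPM in Ctr and 11.7, 13.2, 4.27 and 14.7 CPM in Lpr (log2 fold change 5.67, adjusted p = 0.000781), whereas the next enzymes Uroc1 and Amdhd1 were lower, with log2 fold changes of -2.04 and -4.51 (adjusted p = 0.00276 and 0.000606). Hal and Amdhd1 are neighbours on chromosome 10. Agmat, which hydrolyses agmatine, was higher (3.15, adjusted p = 0.000715) and Cndp1, a dipeptidase, was lower (-1.30, adjusted p = 0.0075). These genes were called in all 7 fits that left out 1 kidney. Without Lpr replicate 3, 5 genes of the list were higher and 13 lower (24.1%, compared to 6.79% of all genes). Without 1 Ctr kidney 2 were higher and between 4 and 5 lower.

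Of 37 tested cytochrome P450 genes 4 were higher and 7 lower (median -0.37), and of 43 conjugation enzymes 4 were higher and 1 lower (median -0.14). Of all tested genes 7.27% were higher and 2.92% lower. Cyp2c23, an epoxygenase of arachidonic acid in the tubule, was at 79.0, 85.1 and 49.8 CPM in Ctr and 5.43, 5.37, 4.24 and 7.85 CPM in Lpr (log2 fold change -3.63 ± 0.27 SE, adjusted p = 0.000322). The Lpr levels lay close together and far below the lowest Ctr level. Cyp2r1, a vitamin D 25-hydroxylase, was lower (-3.76, adjusted p = 0.00125). Cyp4a12a, a hydroxylase that makes 20-HETE and is known to follow androgens, was at 1.69, 2.23 and 1.05 CPM in Ctr and 23.1, 22.3, 19.0 and 22.4 CPM in Lpr (log2 fold change 3.71 ± 0.29 SE, adjusted p = 0.000338). Sult1c2, a sulfotransferase, rose by 1.27 (adjusted p = 0.00223). Cyp2e1 did not pass (-0.42, adjusted p = 0.711). With Lpr replicate 3 left out, the counts were 5 higher and 9 lower for P450 genes and 5 higher and 8 lower for conjugation enzymes. The shares lower were 24.3% and 18.6%, compared to 6.79% of all genes, of which 11.0% were higher. Without 1 Ctr kidney, between 2 and 3 P450 genes were higher and between 2 and 5 lower. For conjugation enzymes between 2 and 3 were higher and none lower.

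Dnase1, which encodes DNase I, a nuclease that the kidney secretes, was examined after its values were seen. It was at 454, 493 and 285 CPM in Ctr and 104, 42.9, 202 and 131 CPM in Lpr, so that every Lpr kidney lay below every Ctr kidney (log2 fold change -1.78 ± 0.44 SE, adjusted p = 0.0371). When Lpr replicate 3 was left out, the difference was -2.14 (adjusted p = 0.0105), and the call was lost without each Ctr kidney and without Lpr replicates 1 and 4 (adjusted p between 0.0622 and 0.128). In the DNase kidneys it was at 339, 193, 239 and 207.5 CPM, a range that overlaps that of Lpr and of Ctr. Dnase1l3, a nuclease that macrophages and dendritic cells secrete, was at 1.10, 0.638 and 0.839 CPM in Ctr and 20.6, 14.6, 7.70 and 13.9 CPM in Lpr (log2 fold change 4.04 ± 0.41 SE, adjusted p = 0.000713) and was called in all 7 fits that left out 1 kidney. Of 7 tested DNA nuclease genes 2 were higher and 1 was lower, 3 and 1 without Lpr replicate 3, and 1 and none without 1 Ctr kidney.

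**Figure D5:**
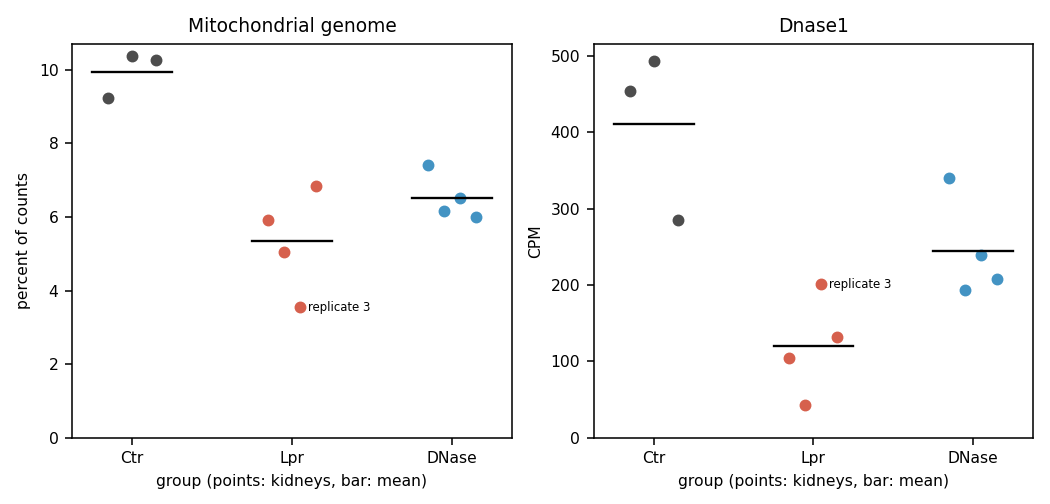
Percent of counts on the mitochondrial genome (left) and CPM of Dnase1 (right) in each kidney of the Ctr, Lpr and DNase groups. Bars mark group means and a text label marks Lpr replicate 3. Lpr kidneys hold 3.56% to 6.83% mitochondrial counts against 9.22% to 10.4% in Ctr, and their Dnase1 levels of 42.9 to 202 CPM lie below the Ctr levels of 285 to 493 CPM.

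Chaperones of the endoplasmic reticulum, another list added after its values were seen, had 9 of 20 genes higher and none lower (median 0.77, all 20 above 0). Hsp90b1, which folds receptors and immunoglobulins, was at 335, 318 and 387 CPM in Ctr and 758, 666, 948 and 661 CPM in Lpr (log2 fold change 1.13 ± 0.19 SE, adjusted p = 0.0067), and Sdf2l1, induced when proteins misfold, rose by 2.02 (adjusted p = 0.0067). In the fit that excluded Lpr replicate 3, 13 were higher and 1 lower, and without 1 Ctr kidney between 2 and 3 were higher. Plasma cell genes, which rise in cells that make the same chaperones, were higher in the same kidneys (Jchain between 143 and 692 CPM in Lpr), and their part in this was not tested.

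Ribosomal protein genes showed the same dependence on Lpr replicate 3 as oxidative phosphorylation, apart from a few genes that fell in every Lpr kidney. Of 77 genes none were higher and 7 were lower, while the median was 0.48 with Lpr replicate 3 (65 above 0) and -0.02 without it (35 above 0, 12 lower), and without 1 Ctr kidney 5 were lower. Rpl29 was at 167, 175 and 169.6 CPM in Ctr and 14.5, 19.8, 28.2 and 16.0 CPM in Lpr (log2 fold change -3.12 ± 0.24 SE, adjusted p = 0.000338), and Rpl21 was at 76.4, 93.2 and 98.5 CPM in Ctr and 1.86, 1.80, 5.23 and 2.53 CPM in Lpr (log2 fold change -4.97 ± 0.40 SE, adjusted p = 0.000357). These levels are far below those of Ctr in all 4 Lpr kidneys. Rpl34 was lower (-2.87, adjusted p = 0.00375) while its processed copy Rpl34-ps1 was higher (3.63, adjusted p = 0.00259). The sum of both was 155 ± 11.0 CPM (SD, n = 3) in Ctr and 164 ± 109 CPM (SD, n = 4) in Lpr. By kidney this sum was 158.3, 163.7 and 142.5 CPM in Ctr and 98.3, 117.8, 326.5 and 112.8 CPM in Lpr. Lpr replicates 1, 2 and 4 thus lay below every Ctr kidney and Lpr replicate 3 lay above. Eno1 and Eno1b, a glycolytic gene and its near-identical copy, also went opposite ways (-0.83, adjusted p = 0.0334, lost without every kidney except Lpr replicate 3 with adjusted p up to 0.144, and 3.99, adjusted p = 0.000338), with sums of 921 ± 111 and 687 ± 163 CPM. Rps18, another ribosomal protein gene, was lower (-2.04, adjusted p = 0.0182, lost without each Ctr kidney and Lpr replicate 2 with adjusted p up to 0.0639), and its sum with the copy Rps18-ps4 was also lower in every Lpr kidney than in Ctr, at 277 ± 19.2 and 79.3 ± 60.01 CPM. The authors' counting could split reads between such copies, and a strain difference in sequence can move reads from one to the other, so these genes are uncertain. Gapdh, often used as a reference gene, was at 166, 109 and 119 CPM in Ctr and 38.8, 29.9, 41.5 and 33.5 CPM in Lpr (log2 fold change -1.87 ± 0.20 SE, adjusted p = 0.000896) and has many processed copies.

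Several of the genes lower in Lpr did not overlap between the groups, which was so for 25.6% of all tested genes in either direction. Cpn1, a carboxypeptidase that inactivates kinins and anaphylatoxins, was at 131, 162 and 114 CPM in Ctr and 10.7, 16.9, 16.4 and 14.2 CPM in Lpr (log2 fold change -3.22 ± 0.21 SE, adjusted p = 0.000201). Ttr, the carrier of thyroxine and retinol, lay between 37.5 and 44.8 CPM in Ctr and between 0.366 and 2.02 CPM in Lpr. Atp4a, the catalytic subunit of the gastric proton pump, had a log2 fold change of -3.95 ± 0.30 (SE, adjusted p = 0.000322) and Akr1e1, an aldo-keto reductase, one of -2.49 ± 0.17 (SE, adjusted p = 0.000201). Kcnj12, a potassium channel, was at -5.95 (adjusted p = 0.000322). Cpn1 and Cyp2c23 are adjacent, in a run of 4 neighbouring tested genes called lower on chromosome 19 (Cpn1, Cyp2c23, Erlin1 and Chuk, chr19:43956307-44107505).

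In 28 genes every Ctr kidney had 3 counts or fewer and every Lpr kidney at least 30, and 10 genes showed the reverse. The folds of such genes are lower bounds, computed against 3 counts in each library. Clec4e, a receptor of myeloid cells, was at least 69.9-fold higher with all kidneys and at least 39.0-fold higher without Lpr replicate 3, whose level was the highest. Ifi213, an interferon-inducible gene of the p200 family, was at least 15.8-fold lower and Trim12a, of the Trim5-like family, at least 91.0-fold lower. Of the 28 genes 12 have names of predicted genes or pseudogenes, as do 7 of the 10. Such names were held by 9.82% of all tested genes, 10.3% of those called higher and 24.3% of those called lower, and by 44.0% of the genes lower with a log2 fold change below -2.

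Some families that differ between mouse strains had members going both ways, and of the 2 genes listed for known C57BL/6J alleles, Nnt and Ifi202b, 1 was higher. In the Serpina1 cluster, which encodes alpha-1 antitrypsins, 1 of 5 tested genes was higher and 3 were lower. Serpina1b was at 1.15, 0.415 and 1.23 CPM in Ctr and 12.0, 9.81, 33.4 and 12.4 CPM in Lpr (log2 fold change 4.17 ± 0.59 SE, adjusted p = 0.00302), and Serpina1d and Serpina1c were lower (-8.01 and -3.18). Of 8 tested Trim5-like genes 3 were higher and 2 lower, among them Trim34b (4.30) and Trim30a (1.55), which were higher. Of 12 tested p200 genes 6 were higher and 2 lower. Ifi202b, a p200 gene with little expression in C57BL/6 mice, was at 0.536, 0.447 and 0.0599 CPM in Ctr and 12.8, 14.5, 15.2 and 7.82 CPM in Lpr (log2 fold change 5.16 ± 0.60 SE, adjusted p = 0.00127), and Aim2, which senses cytosolic DNA, was higher (3.42, adjusted p = 0.00206). Of 9 Slam family genes, receptors of lymphocytes whose locus varies between strains, 6 were higher and none lower, and all 3 tested Ly49 receptor genes were higher. Without Lpr replicate 3, 1 Serpina1 gene was higher and 3 were lower, 3 Trim5-like genes were higher and 3 lower, 6 p200 genes were higher and 2 lower, 7 Slam genes were higher, and both of the 2 Ly49 genes still tested were higher. With 1 Ctr kidney left out, 1, 3, between 5 and 6, 6 and between 1 and 2 genes of these families were higher, and 2 Serpina1, between 1 and 2 Trim5-like and between 1 and 2 p200 genes were lower. Cd84 and Ly9 of the Slam family rose by 4.28 and 4.56. Nnt, the mitochondrial transhydrogenase that is partly deleted in C57BL/6J, was at 174, 175 and 149 CPM in Ctr and 319, 224, 190.2 and 289 CPM in Lpr (0.63, adjusted p = 0.112), and was higher without Lpr replicate 3 (0.75, adjusted p = 0.0114). The members of a family share sequence, so reads can be assigned to another member where the strain differs from the reference, which is C57BL/6J.

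Called genes also stood next to each other. There were 40 runs of at least 3 adjacent tested genes called in one direction. The longest, of 14 genes on chromosome 17 (chr17:34119693-34460734), lies in the MHC class II region and includes H2-DMa, and all 14 were also called without Lpr replicate 3. The next were 9 genes around Sp110, Sp140 and Sp100 (chr1:85155201-85736656) and 8 of the Ms4a family (chr19:11321039-11604804). A run of 7 lay at the Clec4 receptors (chr6:122921848-123289871), and a run of 5 held Gbp5, Gbp7, Gbp3, Gbp2b and Gbp2 (chr3:142496934-142638008). The calls in these runs are those with all kidneys, and Gbp2b, Gbp3, Gbp5, Gbp7, Sp100 and Chuk were not called without any 1 of the Ctr kidneys. Sp140 was not called without Ctr replicate 3 (adjusted p = 0.0515), Sp100 also not without Lpr replicate 1 (adjusted p up to 0.1), and Gbp2b and Chuk also not without Lpr replicates 1, 2 and 4 (adjusted p up to 0.176 and 0.131). Chromosome 17 had the highest share of tested genes called higher (10.5%) and chromosome 18 the lowest (3.13%). Positions are from RefSeq GRCm38.p6 by gene symbol, which matched 15964 of the 16074 tested genes.

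Markers of neighbouring tissues differed between kidneys rather than between groups. The summed level of 8 adipose genes was 393, 49.6 and 710.4 CPM in Ctr and 30.3, 54.7, 658 and 464.5 CPM in Lpr, and that of 6 urothelial genes 87.8, 13.7 and 137 CPM in Ctr and 7.20, 16.5, 75.9 and 115 CPM in Lpr. No gene of either list was called. The 3 tested adrenal cortex genes summed to at most 1.42 CPM in each kidney and none were called. Of 7 skeletal muscle genes 1 was lower, Myh1 (-1.55, adjusted p = 0.0131, or 0.0752 without Ctr replicate 1). Of 5 red blood cell genes 1 was lower, Hba-a2 (-3.24, adjusted p = 0.000521), whose sum with its near-identical copy Hba-a1 was 252 ± 113 CPM (SD, n = 3) in Ctr and 660.2 ± 381 CPM (SD, n = 4) in Lpr. None of 13 immediate early and heat shock genes, which respond to handling of tissue, was called, although all had log2 fold changes above 0 (median 1.53). Their median stood 2.46 above the Ctr mean in Lpr replicate 2, 0.90 in replicate 3, 0.45 in replicate 4 and -0.08 in replicate 1.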

How the data were processed

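Kidney RNA of 4 untreated MRL/lpr and 3 C57BL/6J mice was compared, with 1 library per mouse and groups taken from the sample labels. The authors deposited raw read counts for 25677 genes listed by symbol, from 100-base paired-end reads sequenced on an Illumina instrument. The FPKM values deposited by the authors were computed from these counts, and gene lengths were recovered from the ratio of both. The submitters' processing notes name fastp, HTSeq, DESeq2, R 3.2.0 and mm10. The study's methods name HTSeq for matching reads to reference genes. Another aligner, the annotation and the strand setting of the counting are not given in the sources used here. The number of unused columns of sample values was 0.

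Counts of the 7 libraries were fitted with edgeR 4.0.16 in R 4.3.3 (filterByExpr, TMM factors, glmQLFit, glmQLFTest), with Benjamini-Hochberg adjustment over the 16074 tested genes, and a gene was called at an adjusted p under 0.05. The p-values set the group difference against the variation between libraries of a group, which holds differences between mice and in library preparation. Fold changes are log2 and Lpr over Ctr, and the prior count behind log2 CPM was 2. Gene lists are described by counts and medians, with no test of the list. A fold against a group with 3 counts or fewer in every library is a lower bound against 3 counts, which covers counting error only. Setting the genes at that floor to their bound changed the medians of 6 lists, most for the checkpoint list. Positions and promoters came from RefSeq GRCm38.p6 by symbol.

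The rule for naming genes took the leading markers of each list, the genes with the smallest p in each list and direction, the genes with the smallest p or largest fold over all lists and genes, the most expressed genes at the floor in one group, and Fas, Nnt and H2-Ea. The members and lists were chosen with earlier results of these data known. The lists of the mitochondrial genome, DNA nucleases and endoplasmic reticulum chaperones, with Dnase1, were chosen after their values were seen, as were B2m, Irf1, Igtp, Samd9l, Rsad2, Trim25, H2-D1, H2-Q4, Rpl34, Rpl34-ps1, Rps18, Rps18-ps4, Uroc1, Cndp1, Cd22, Cd79a, Crot, Ccl2 and the genes named in runs. H2-Ea was not analysed here, and results of 4 other named genes are not reported here. Other alternatives changed the normalization, the tool (DESeq2 1.42.0, limma 3.58.1), the filter, the fold threshold, which libraries were fitted, the replicate block, the robust fit, the gene length offset and the unit (limma on log2 FPKM with 1 or 0.1 added, where the mean FPKM reached 0.5), and left out each library in turn. The sources used here do not say that the replicate numbers pair the mice. The procedure was tested on simulated data with the same group sizes. There the edgeR test called 9 of 67 genes changed by 1 on the log2 scale, so differences of that size were mostly missed in the simulation. It called 58 of 67 genes changed by 2 and 64 of 66 changed by 3, with 10 false calls. Far fewer genes were changed there than were called in these kidneys, and no simulated library had a length trend. The share missed in these kidneys can therefore differ. Figures were drawn with matplotlib 3.10.9 in python 3.11.15.

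Pairs of kidneys within a group differed beyond counting noise, with chi-square values per degree of freedom from 28.9 to 393. The values above 100 were those of pairs with Lpr replicate 3. Such differences can come from mice or from library preparation, which cannot be told apart with 1 library per mouse.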

Additional observations from a re-analysis of the deposited data

Results flagged for a closer look

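In a group of 4, the highest or lowest kidney was singled out where its gap to the nearest other kidney exceeded Dixon's critical share of the range, a rule that chance meets in about 1 in 20 groups. Of 56 list means and 155 genes examined among the Lpr kidneys, 5 list means and 10 genes met it, 8 of these 15 in Lpr replicate 3. In that kidney the mean log2 CPM of the podocyte list was 5.24 (5.86 to 5.89 in the other 3), that of oxidative phosphorylation was 8.59 (7.23 to 7.45) and that of cytosolic ribosomal proteins was 9.23 (7.71 to 7.91). Also in Lpr replicate 3, Cpt1a was at 145 CPM (372 to 414 in the others), Samd9l at 52.9 CPM (130.5 to 148), Pigr at 167 CPM (839 to 1155), Rpl34-ps1 at 288 CPM (87.5 to 101) and Rps18-ps4 at 33.02 CPM (4.5 to 5.69).

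In Lpr replicate 2 the mean log2 CPM of the cytochrome P450 list was 3.25 (3.46 to 3.48 in the others), that of the macrophage list was 5.34 (4.50 to 4.62), and Serpina1c was at 0.0522 CPM (0.169 to 0.181). In Lpr replicate 4, B2m was at 2237 CPM (3191 to 3401), Bst2 at 88.4 CPM (175 to 188) and Il1rn at 3.13 CPM (8.03 to 9.62). In Lpr replicate 1, Jchain was at 143 CPM (617 to 692).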

How the results depend on the processing

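Of the 128 genes named in the text and called, 92 were called under every alternative that gave them a value and none changed direction. The counts of genes higher in Lpr than Ctr and of genes lower in Lpr than Ctr (1169 and 470) became 747 and 182 above an absolute log2 fold change of 2, and 1863 and 1146 with voom and sample quality weights, which gave Lpr replicate 3 a weight of 0.0984. The count lower was 811 with DESeq2 and 812 with all 11 libraries in the fit, and 310 and 286 with limma on log2(FPKM + 1) and log2(FPKM + 0.1). With 1 kidney left out the counts ranged from 641 to 1748 higher and from 211 to 1076 lower, lowest without Ctr replicate 1 and highest without Lpr replicate 3. The causes were not tested. With the replicate block, in which Lpr replicate 4 has no partner, 955 genes were higher and 313 lower, and 14 of the 128 named genes were not called. Same-numbered kidneys deviated with correlations of -0.217, 0.0761 and 0.0583 over genes. Differently numbered kidneys had correlations from -0.283 to 0.368, so these values cannot show whether the mice were paired.

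Differences near 0 that were not called changed sign. The log2 fold change of Fas was 0.0725 with the replicate block and 0.00961 and 0.01308 with limma on log2(FPKM + 1) and log2(FPKM + 0.1). That of Zbtb46 was 0.0196 with the gene length offset and 0.0889 with voom. With 1 kidney left out, values ranged from -0.128 to 0.0779 for Fas, from -0.0556 to 0.844 for Aqp2, from -0.273 to 0.0227 for Pecam1, from -0.649 to 0.0159 for Rsad2 and from -0.245 to 0.118 for Zbtb46.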

Other observations

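A few genes outside the lists above also had the same direction in every kidney. Pigr, the epithelial receptor that carries IgA and IgM into the tubule lumen, was chosen after its values were seen and was at 63.4, 67.4 and 43.0 CPM in Ctr and 839, 1116, 167 and 1155 CPM in Lpr (log2 fold change 3.83 ± 0.63 SE, edgeR adjusted p = 0.0061). Lpr replicate 3 was the lowest of the Lpr kidneys and still above every Ctr kidney. Ang, a secreted ribonuclease, was at 0.912, 1.25 and 1.05 CPM in Ctr and 18.7, 19.6, 16.0 and 12.3 CPM in Lpr (log2 fold change 3.97 ± 0.27 SE, edgeR adjusted p = 0.000201). Ms4a6d, a membrane protein of myeloid cells, rose from between 0.734 and 1.13 CPM to between 15.6 and 30.3 CPM.

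The MRL/lpr mice given DNase I share the strain, the lpr mutation, the supplier and the lupus-like disease of the Lpr mice. The counts below cannot tell these apart. Of the 28 genes with 3 counts or fewer in every Ctr kidney and at least 30 in every Lpr kidney, 23 also had at least 30 in every DNase kidney and none had fewer than 14 in any. Of the 10 genes with the reverse pattern, 7 had 3 counts or fewer in every DNase kidney and none had more than 6 in any.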
